A study of Mus musculus with 19 samples.

Results

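The step from all-lymphoid progenitors (ALP) to early innate lymphoid progenitors (EILP) was described gene by gene from 14 of the 19 RNA-seq libraries of a study of innate lymphoid cell development. The members were chosen by their labelled group, 7 ALP and 7 EILP libraries, and all 18607 genes of the deposited table were compared. Both groups came from the bone marrow of C57BL/6 mice that carry the Tcf7EGFP allele in a single copy (Tcf7EGFP/+), so that green fluorescence reports the gene for the transcription factor TCF-1 in controls and EILP alike. ALP were sorted as lineage-low, Ly-6D-low cells with Kit, IL-7Rα and high Flt3. EILP were sorted as lineage-low, Ly-6D-low, Kit-positive cells with high fluorescence, low Thy-1.2, low CD122 and IL-7Rα that was low or intermediate. A difference in Tcf7, Il2rb, Thy1, Il7r or Flt3 is therefore in part a property of the gates. The other 5 libraries, later ILC progenitors, entered the same model, where they add to the estimates of the spread and of the batch terms.

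Innate lymphoid cells are lymphocytes of tissues and mucosae that release cytokines without a rearranged antigen receptor. They descend from bone marrow lymphoid progenitors that can also give B cells, T cells and dendritic cells, and commitment to the innate branch depends on TCF-1, the E protein antagonist ID2, the nuclear factor TOX and the basic leucine zipper factor NFIL3. Alongside these factors, a committing progenitor changes the receptors by which it reads its niche, the proteins it secretes, and the enzymes and signalling proteins it uses, and these are described below.

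All levels are the authors' log2 CPM (counts scaled to a common library total). From their values they appear to have been freed of batch differences before deposit. Library medians still differed, from 2.13 log2 CPM in EILP 4 to 3 in ALP 2. The number of reads behind a level is unknown. Nothing in the labels ties the libraries of a group to different animals. The p-values therefore reflect only how far these libraries scatter, part of which may be technical. Libraries fell into 5 sequencing batches, and 4 of them held both groups. EILP 3 and EILP 4 formed batch 3 on their own and bear on the errors but not on the fold changes. Correlation with the mean of the other libraries of the group was lowest in EILP 2 (0.817) and ALP 7 (0.819). The RNA was bulk RNA, in which fewer cells of a type and less RNA per cell cannot be told apart, and the library kits do not mark strand, so overlapping and antisense genes cannot be separated.

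The genes that define the stage separated the groups. Tcf7 ranged from −2.66 to 3.59 log2 CPM in ALP (median 1.85) and from 8.47 to 13.07 in EILP (median 10.45). Id2 ranged from 4.24 to 5.56 (median 4.80) and from 8.74 to 9.64 (median 9.45). Tox ranged from 2.99 to 4.10 (median 3.95) and from 7.52 to 8.13 (median 8.02). Every EILP library lay above every ALP library for these genes and for Nfil3, which ranged from 4.44 to 6.40 in ALP (median 5.15) and from 8.01 to 8.28 in EILP (median 8.22). Limma adjusted p-values were 0.000124, 1.09e-08, 4.70e-08 and 4.53e-05 in that order. Kit, the receptor both gates select for, was higher in EILP by 0.69 ± 0.10 on the log2 scale (standard error, as in all log2 differences below; limma adjusted p = 0.00041). Flt3, which only the ALP gate selects for, lay lower in each EILP library than in any ALP library, with a log2 difference of −2.87 ± 1.19 that did not pass (limma adjusted p = 0.219). It passed when only the ALP and EILP libraries were used (limma adjusted p = 6.60e-05).

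Over the whole transcriptome, 939 genes (5.05% of those tested) differed between EILP and ALP at a limma adjusted p below 0.05. Of these, 419 (2.25%) were higher and 520 (2.79%) lower in EILP, and 536 stayed called when each library was left out in turn, 247 higher and 289 lower (2.88% of genes tested). Of the 939, 422 exceeded 3 on the log2 scale and 197 were below 1. In 676 of them the libraries of the groups did not overlap. Among all genes tested, 2.36% had every EILP library above every ALP library and 2.38% the reverse. Overlap, here and below, was judged on values that appear cleared of batch. In such values the mean of EILP 3 and EILP 4 falls on the fitted EILP level, so that pair adds no independent separation from ALP. Expressed genes were called more often, at 6.39% of the 9303 genes above the median mean level. The split by direction depended on the scaling. Library medians averaged 2.75 log2 CPM in ALP and 2.41 in EILP, with a difference of −0.215 once batch was taken into account, and centring each library on its median moved the share of calls higher in EILP from 44.6% to 67.1% (804 higher and 395 lower). Batch 4 held ALP 4, EILP 5 and the later ILC progenitor libraries 3, 4 and 5. Without it 583 genes were called, with 8 residual degrees of freedom in place of 12. Without ALP 4 alone 861 were called, and without EILP 5 alone 779.

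Some of the widest differences were in genes at the floor of the table in one group. In 138 called genes the lower group sat at the zero level, the lowest value of a batch when libraries share it exactly. A group was counted there when this held in each of its libraries that had a partner of the same group in the batch (5 of 7 ALP and 4 of 7 EILP libraries), so that the remaining libraries, ALP 1 and 4 and EILP 1, 2 and 5, may lie higher. ALP was at that level for 80 of the genes higher in EILP, and EILP for 58 of the genes lower in EILP. Means of the lower group ran from −6.13 to −2.07 log2 CPM in these genes. No fold is given for them, since it would depend on that level. The zero level by itself was common, with the lower group there in 3217 further genes that were not called. Folds of other genes whose lower group reached negative log2 CPM rest on it in part.

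**Figure D1:**
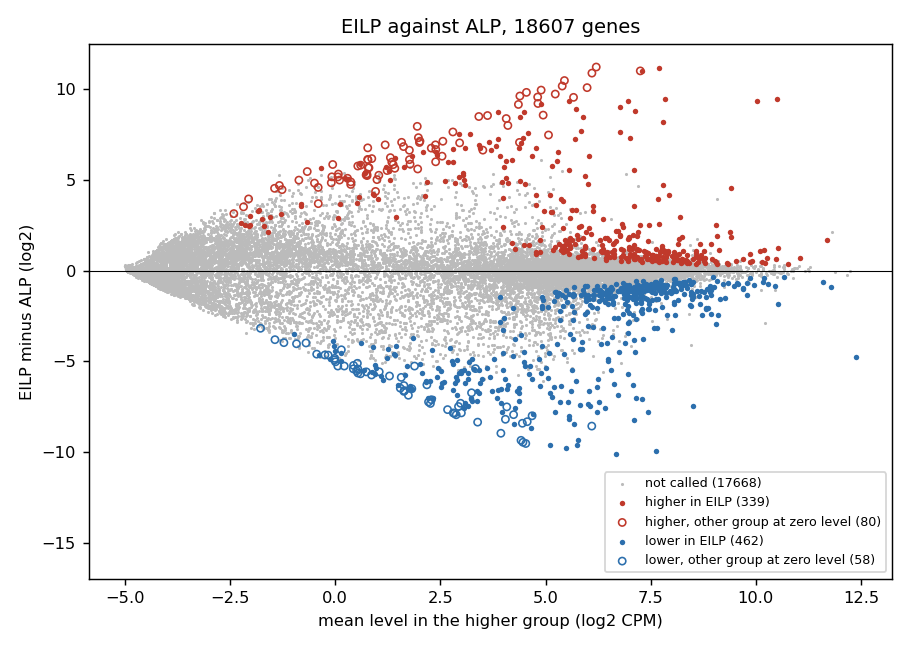
Log2 difference between EILP and ALP (vertical axis) against the mean level in the higher group (log2 CPM, horizontal axis) for 18607 genes, with genes higher in EILP in red, lower in blue and not called in grey. Open circles are the 80 and 58 called genes whose other group sat at the zero level, and they follow the outer edges of the cloud.

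Surface proteins were called more often than genes at large. Of 936 surface genes in 21 families, 37 rose and 55 fell (9.83%, against 5.05% of all genes). Among those above the median level the share was 14.9%, against 6.39%. Of 44 receptor chains for interleukins and other cytokines 9 fell and 2 rose (25% called, against 5.05% of all genes). Their median log2 difference was −0.62 against 0 over all genes, and 7 and 1 of the called genes stayed called without each library. The gate genes Il2rb and Il7r were called as well, Il2rb higher and Il7r lower, and Il2rb stands outside this list. Il10rb, the shared chain of the receptors for IL-10, IL-22 and the type III interferons, ranged from 6.60 to 7.30 log2 CPM in ALP (median 6.97) and from 3.42 to 4.90 in EILP (median 4.13), a fall of 2.83 ± 0.31 (limma adjusted p = 3.23e-05). Il17ra, the common IL-17 receptor chain, ranged from 8.25 to 8.71 (median 8.40) and from 6.11 to 7.17 (median 6.45), and fell by 1.87 ± 0.22 (limma adjusted p = 5.39e-05). In both genes all EILP libraries lay below all ALP libraries. Csf2rb2, a mouse signalling chain used by the IL-3 receptor, was at the zero level in EILP and ranged from 2.69 to 5.38 in ALP. In the other direction stood Il12rb2, the signalling chain of the IL-12 receptor, from 0.40 to 4.72 in ALP (median 2.26) to 5.66 to 6.87 in EILP (median 6.10), a rise of 3.55 ± 0.71 (limma adjusted p = 0.00654).

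Receptors and enzymes of extracellular nucleotides were divided. Of 21 measured, 3 rose and 3 fell (28.6% called), and 2 and 3 stayed called without each library. Nt5e encodes CD73, the surface enzyme that makes adenosine from AMP. It ranged from −4.95 to −1.96 log2 CPM in ALP (median −4.63) and from 3.39 to 5.25 in EILP (median 4.34; limma adjusted p = 1.20e-06). P2rx4, an ATP-gated cation channel, rose by 1.15 ± 0.22, with ALP libraries between 5.55 and 6.78 (median 6.03) and EILP libraries between 6.92 and 7.45 (median 7.22; limma adjusted p = 0.0041). P2ry13, a G protein-coupled ADP receptor, moved the other way, from 3.80 to 7.31 in ALP (median 5.14) to −7.61 to −1.06 in EILP (median −4.48; limma adjusted p = 0.000632). Its neighbour P2ry12, another ADP receptor, fell as well (limma adjusted p = 0.00066), as did Adora2b, an adenosine receptor (limma adjusted p = 0.0041). No EILP library overlapped an ALP library in any of these 5 genes.

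Costimulatory and inhibitory receptors of the immunoglobulin family also moved both ways, 4 rising and 3 falling of 32 (21.9% called). Pdcd1, which encodes the inhibitory receptor PD-1, ranged from −4.56 to 3.38 log2 CPM in ALP (median 1.34) and from 6.30 to 9.69 in EILP (median 7.78), a rise of 8.18 ± 1.38 (limma adjusted p = 0.00184). Cd7, an early lymphoid surface protein, rose by 1.98 ± 0.40, from a range of 2.82 to 4.92 (median 3.74) to one of 5.32 to 6.08 (median 5.75; limma adjusted p = 0.00731). Havcr2, the gene of the inhibitory receptor TIM-3, was at the zero level in EILP and between 2.31 and 5.75 in ALP. Tnfrsf9, the costimulatory receptor 4-1BB, was between 2.76 and 4.66 in EILP and at most −3.61 in ALP (limma adjusted p = 1.50e-06), 1 of only 2 genes called among 22 TNF receptors.

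Receptors first known from axon guidance moved in both directions. Of 49 semaphorins, plexins, ephrins, Eph and Robo receptors, 5 fell and 2 rose (14.3% called, against 5.05% of all genes). Of these, 4 and 1 stayed called without each library. Robo4, a Slit receptor of endothelium and early blood progenitors, ranged from 2.98 to 5.63 log2 CPM in ALP (median 4.32) and lay at the zero level in EILP, between −5.25 and −4.55 (limma adjusted p = 3.66e-07). The adjacent Robo3 fell too (limma adjusted p = 0.0008), and Epha2, an ephrin receptor kinase, was at the zero level in EILP (limma adjusted p = 8.79e-05). From other lists, Eltd1, an adhesion G protein-coupled receptor of endothelium, ranged from 8.71 to 10.01 in ALP (median 8.88) and from 5.54 to 6.63 in EILP (median 6.15), and fell by 2.96 ± 0.31 (limma adjusted p = 2.29e-05). Emcn, an endothelial sialomucin, fell as well (limma adjusted p = 0.000873), whereas Flt1, a VEGF receptor, rose by 5.73 ± 1.01 (limma adjusted p = 0.00246), from a range of −6.20 to −0.27 to one of −0.03 to 3.28. Gfra1, the co-receptor for the neurotrophic factor GDNF, had one of the largest falls of the comparison. It ranged from 5.73 to 7.87 in ALP (median 6.71) and from −6.02 to −0.83 in EILP (median −3.91; limma adjusted p = 8.53e-06). In the opposite direction, Sema4a, a semaphorin of immune cells, rose by 2.55 ± 0.33, from a range of 3.18 to 5.28 (median 4.31) to one of 6.37 to 7.24 (median 6.81; limma adjusted p = 0.000144). Nrp2, a semaphorin and VEGF co-receptor, was between 2.07 and 5.50 in EILP while ALP sat at the zero level.

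Adhesion and membrane-organizing proteins completed the change of the cell surface. Both chains of the gut-homing integrin α4β7, which is part of the gate of the later ILC progenitors but not of the ALP or EILP gate, rose. Itgb7 ranged from 5.87 to 6.87 log2 CPM in ALP (median 6.66) and from 8.66 to 9.47 in EILP (median 9.03; rise of 2.50 ± 0.20, limma adjusted p = 1.10e-06), and Itga4 rose by 2.11 ± 0.26 (limma adjusted p = 0.000115). Itga2b, the platelet integrin chain CD41, lay at the zero level in ALP and between 5.18 and 6.68 in EILP. Among 26 tetraspanins, small membrane scaffolds, 2 rose and 4 fell (23.1% called, against 5.05% of all genes), and 1 and 2 stayed called without each library. The lower count was 2 without ALP 1 or EILP 6. Cd63, a tetraspanin of granules and endosomes, ranged from 2.23 to 4.69 in ALP (median 3.57) and from 6.92 to 8.49 in EILP (median 7.89), rising by 3.93 ± 0.50 (limma adjusted p = 0.00013). Tspan13 ranged from 8.75 to 9.61 (median 9.19) and from 6.25 to 7.19 (median 6.62), and fell by 2.48 ± 0.18 (limma adjusted p = 5.69e-07), and Cd53 fell by 0.96 ± 0.14 (limma adjusted p = 0.000554). Of 35 GPI-linked Ly6 proteins and complement regulators 6 fell and 1 rose (20% called), and 4 and 1 of these stayed called without each library. The gene that rose was Cd52, a short glycoprotein of lymphocytes (0.89 ± 0.18, limma adjusted p = 0.00628). Ly6a, the stem cell antigen Sca-1, ranged from 6.63 to 7.37 in ALP (median 6.80) and from 2.96 to 4.12 in EILP (median 3.52), a fall of 3.43 ± 0.47 (limma adjusted p = 0.000288).

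Transporters and channels were called about as often as other genes or less. Of 267 solute carriers 14 were called (5.24%, close to the 5.05% of all genes), 6 higher and 8 lower, and 3 and 2 stayed called without each library. The lower count was 4 without ALP 1, ALP 2 or EILP 2, and with libraries centred on their median the counts were 10 higher and 4 lower. Slc22a3, an organic cation transporter that takes up histamine and monoamines, rose by 2.18 ± 0.36, from a range of 3.49 to 5.37 log2 CPM (median 4.22) to one of 6.27 to 7.11 (median 6.64; limma adjusted p = 0.00169). Of 118 ion channel genes 2 were called (1.69%), and of 16 receptor tyrosine phosphatases none passed limma (3 had an unadjusted p below 0.05).

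**Figure D2:**
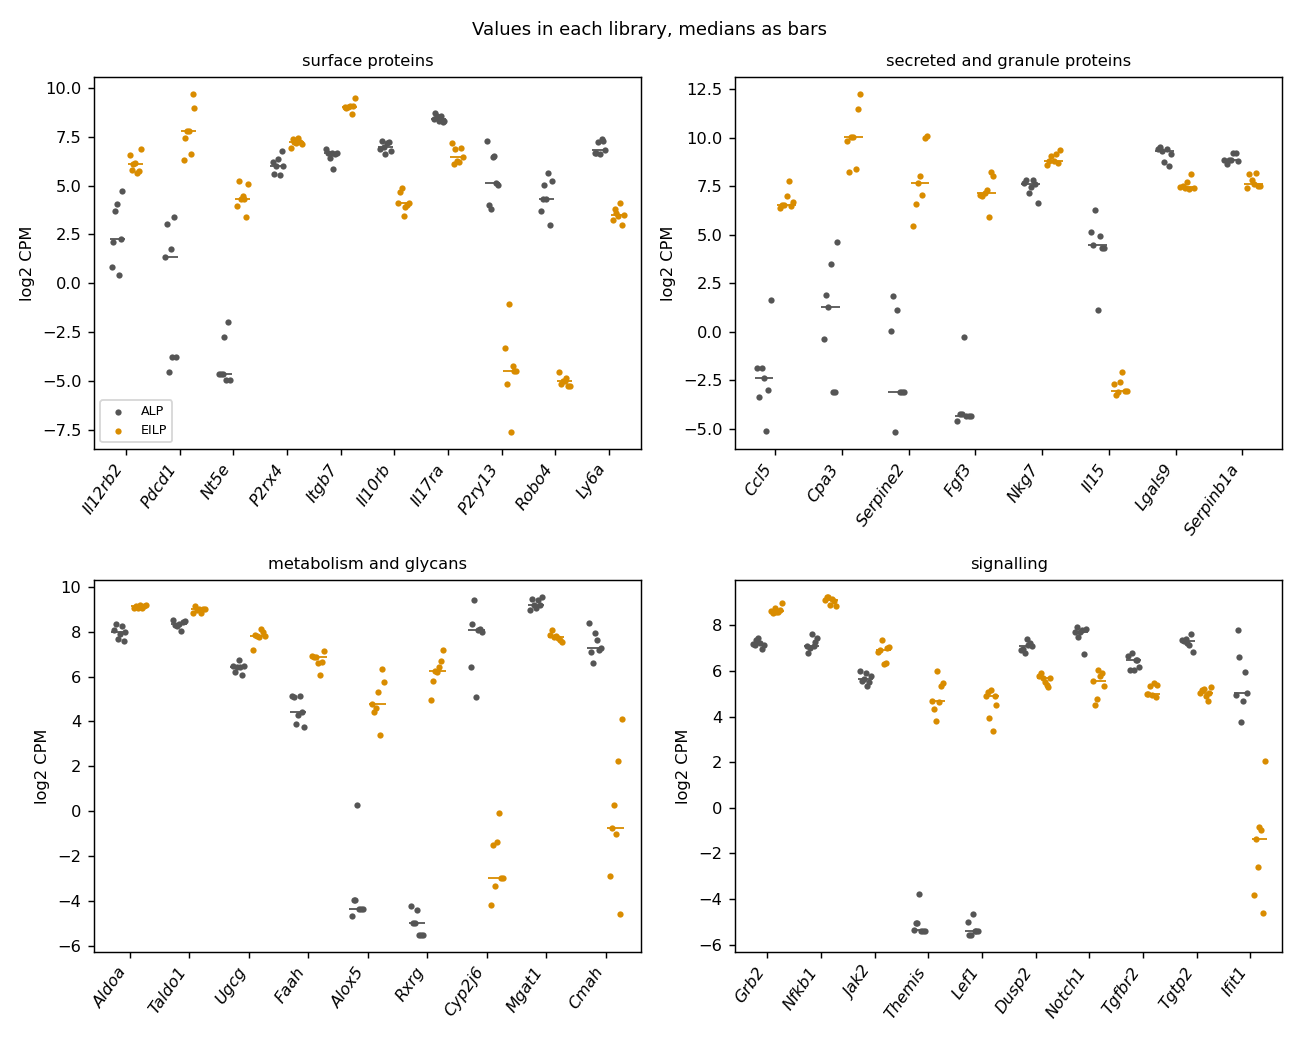
Log2 CPM of 37 genes in each of the 7 ALP (grey) and 7 EILP (orange) libraries, with group medians as bars, in panels for surface proteins, secreted and granule proteins, metabolism with glycans, and signalling. Points of the groups do not overlap in any of these genes, which were chosen among called genes. Of all 939 called genes, 676 showed no overlap.

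Enzymes that build and decorate the glycans of surface proteins and lipids showed another imbalance, with 9 of 97 lower and 4 higher (13.4% called, median log2 difference −0.29). Of these, 4 and 2 stayed called without each library, and without EILP 7 the lower count was 5 and the higher count 2. Mgat1, which opens the route to complex N-glycans, ranged from 8.97 to 9.54 log2 CPM in ALP (median 9.20) and from 7.55 to 8.09 in EILP (median 7.74), and fell by 1.49 ± 0.16 (limma adjusted p = 2.49e-05). Cmah, the hydroxylase that turns the sialic acid Neu5Ac into Neu5Gc, ranged from 6.62 to 8.37 (median 7.29) and from −4.60 to 4.10 (median −0.74; limma adjusted p = 0.000899). B3gnt5, which starts lacto-series glycolipids, fell by 2.14 ± 0.41 (limma adjusted p = 0.00492). Fut7, the fucosyltransferase that completes selectin ligands, rose instead, by 1.19 ± 0.18, from a range of 6.10 to 6.63 (median 6.55) to one of 7.44 to 7.85 (median 7.57; limma adjusted p = 0.000667). Chst12, a chondroitin sulfotransferase, rose by 1.01 ± 0.20 (limma adjusted p = 0.00499). The EILP libraries were apart from the ALP libraries in all of these.

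Secreted factors gave 33 calls. Of 362 genes for secreted proteins 20 rose and 13 fell (9.12%), and in 11 of the 33 the lower group was at the zero level. Of 33 fibroblast growth factor (FGF), Wnt, BMP, TGF and Hedgehog ligands 3 rose and 1 fell (12.1%, against 5.05% of all genes), with a median log2 difference of 0. The lower group was at the zero level in all 4, and none of the 4 was above the median level. Without each library 2 and 1 stayed called. Fgf3 and Fgf15 lie close together on chromosome 7 (chr7:144838083-144844436 and chr7:144896531-144900953, GRCm38). Both are embryonic growth factors, and Fgf15 is also the ileal hormone that restrains bile acid synthesis. Fgf3 ranged from 5.92 to 8.25 log2 CPM in EILP (median 7.17) with ALP at the zero level (limma adjusted p = 2.90e-07), and Fgf15 from 4.53 to 6.07 with ALP at the zero level (limma adjusted p = 2.98e-07). In ALP, Fgf3 lay between −4.57 and −0.27 (median −4.35). Fgf13, a family member that stays inside the cell, was at the zero level in EILP and ranged from 2.99 to 5.93 in ALP (limma adjusted p = 0.00176).

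Among 21 chemokines 1 was called (4.76%, against 5.05% of all genes). Ccl5, a chemokine made by cytotoxic and memory lymphocytes, ranged from −5.11 to 1.64 log2 CPM in ALP (median −2.37) and from 6.37 to 7.77 in EILP (median 6.56; limma adjusted p = 4.89e-06). Of 29 interleukins and colony-stimulating factors 4 were called (13.8%), 2 in each direction, and 1 stayed called without each library. That gene was Il15, the survival cytokine of natural killer cells and innate lymphocytes, which ranged from 1.12 to 6.28 in ALP (median 4.45) and from −3.27 to −2.09 in EILP (median −3.06; limma adjusted p = 0.000753). Lgals9, the gene of galectin-9, a ligand of TIM-3, fell by 1.58 ± 0.23, from a range of 8.54 to 9.50 (median 9.30) to one of 7.36 to 8.12 (median 7.47; limma adjusted p = 0.000532). By limma no gene was called among 15 TNF superfamily ligands (1 with an unadjusted p below 0.05) or among 25 complement and pattern-binding proteins (4 with an unadjusted p below 0.05).

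Among 21 granule proteins 4 rose, all 4 without each library, and 1 fell (23.8% called, with a median log2 difference of 1.82 over the list). Without EILP 7 the higher count was 7. Nkg7, a membrane protein of cytotoxic granules, ranged from 6.64 to 7.84 log2 CPM in ALP (median 7.64) and from 8.60 to 9.39 in EILP (median 8.80), rising by 1.48 ± 0.20 (limma adjusted p = 0.000276). Ctsw, a cathepsin of cytotoxic lymphocytes, rose by 1.82 ± 0.29 (limma adjusted p = 0.000978), and Srgn, the proteoglycan that packs granules, by 0.55 ± 0.09 (limma adjusted p = 0.00182). Gzma, the gene of granzyme A, lay at the zero level in ALP and reached 3.42 in EILP (limma adjusted p = 0.00865), with an adjusted p of 0.0881 when ALP 7 and EILP 2 were both left out and 0.0792 without batch 4. The gene that fell was Cst7, an inhibitor of cathepsins, which fell by 1.05 ± 0.28 (limma adjusted p = 0.0447) and was not called when, among others, ALP 1 or EILP 7 was left out (adjusted p = 0.0779 and 0.149). Markers of neutrophils, monocytes and macrophages had summed levels of 738 to 7750 CPM in ALP (median 3090) and 1830 to 42700 CPM in EILP (median 6630), with 2 of 29 higher and none lower, and their part in the granule calls was not tested.

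The remaining secreted calls included proteases and matrix. Cpa3, the carboxypeptidase best known from mast cells, ranged from −3.10 to 4.62 log2 CPM in ALP (median 1.30) and from 8.26 to 12.25 in EILP (median 10.04; limma adjusted p = 0.000253). Serpine2, a secreted inhibitor of thrombin and urokinase, ranged from −5.15 to 1.86 (median −3.10) and from 5.46 to 10.07 (median 7.65; limma adjusted p = 0.000201). Spon2, a secreted pattern-binding matrix protein, rose likewise (limma adjusted p = 2.98e-05). No ALP library reached the EILP range for these 3 genes. Serpinb1a, an inhibitor of neutrophil proteases, fell by 1.18 ± 0.16 (limma adjusted p = 0.000322). The Cpa3 neighbours Gyg, the primer of glycogen synthesis, and Cpb1, another carboxypeptidase, were higher as well, Gyg by 1.09 ± 0.18 (limma adjusted p = 0.00181). Cpb1 was at the zero level in ALP (limma adjusted p = 0.00396) and was not called without batch 4 (adjusted p = 0.0697). Cpa3 was the 1 called gene of 16 markers of mast cells, basophils and eosinophils. The summed level of those 16 ranged from 33 to 836 CPM in ALP (median 56.6) and from 555 to 14100 CPM in EILP (median 1490), and Fcer1a, Ms4a2 and Ear1 were at the zero level in ALP but not in EILP. Of 27 stroma and endothelium markers 5 rose and 2 fell, with 2 and 2 kept without each library and counts of 1 and 2 without batch 4. Their summed level was 353 to 516 CPM in ALP and 403 to 1940 CPM in EILP. Col1a1, the main collagen of bone, was among those higher, at the zero level in ALP and between −0.78 and 9.43 log2 CPM in EILP (limma adjusted p = 0.00176). The part of other cell types in these results was not tested.

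Of 769 metabolic genes in 22 pathways, 40 rose and 19 fell (7.67%, and 8.65% of those above the median level, against 6.39%). Aldoa, the aldolase of glycolysis, was the only called gene of the 27 in its list. It ranged from 7.57 to 8.36 log2 CPM in ALP (median 8.0) and from 9.04 to 9.20 in EILP (median 9.15), a rise of 1.14 ± 0.13 (limma adjusted p = 3.59e-05). In the pentose phosphate branch, which supplies NADPH and ribose, 3 of 17 rose and none fell (17.6% called, against 5.05% of all genes). Of these, Taldo1 stayed called without each library. This transaldolase gene rose by 0.64 ± 0.13, from a range of 8.04 to 8.51 (median 8.34) to one of 8.83 to 9.16 (median 8.99; limma adjusted p = 0.00688, 0.0531 without both ALP 7 and EILP 2 and 0.0724 in limma without a trend). Mdh2, the malate dehydrogenase of the citric acid cycle, rose by 0.45 ± 0.08 (limma adjusted p = 0.00184, 0.114 without a trend). No gene passed limma among 24 of fatty acid synthesis, 39 of cholesterol synthesis and uptake, 32 of serine, glycine and one-carbon metabolism and 25 of pyrimidine and deoxynucleotide synthesis, where 5, 8, 4 and 6 had an unadjusted p below 0.05. Over all genes 3249 did. Leaving out a single library gave at most 2 calls in any of these 4 lists.

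Heme and iron genes were called in 1 direction, with 6 of 33 higher and none lower (18.2% called, median log2 difference 0.42). Only 2 stayed called without each library, and the count was 3 without EILP 6 and 3 without batch 4. Ftl1, the ferritin light chain that stores iron, ranged from 8.70 to 9.30 log2 CPM in ALP (median 9.10) and from 9.50 to 9.89 in EILP (median 9.65), rising by 0.62 ± 0.13 (limma adjusted p = 0.00937, 0.0947 without a trend). Tfr2, a transferrin receptor and iron sensor, was higher by 5.25 ± 1.02 (limma adjusted p = 0.00509, 0.0528 without batch 4). Summed markers of erythroid and megakaryocyte cells ranged from 113 to 497 CPM in ALP and from 157 to 2390 CPM in EILP, with 2 of 22 called, both higher. These were Itga2b and Gp1bb, another platelet glycoprotein, and the latter was not called without ALP 2, ALP 5, EILP 2, EILP 5, EILP 6 or EILP 7 (adjusted p from 0.0517 to 0.0878). The part of such cells was not tested.

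Calls among lipid mediator genes (3 of 27, 11.1%) and retinoid genes (2 of 27, 7.41%) were all higher in EILP, against 5.05% of all genes called. With so few calls a shared direction says little about either list. In each list 2 stayed called without each library. Alox5, the 5-lipoxygenase that begins leukotriene synthesis, ranged from 3.39 to 6.34 log2 CPM in EILP (median 4.78) with ALP at the zero level (limma adjusted p = 2.05e-05). ALP libraries lay between −4.66 and 0.29 (median −4.37). Faah, the hydrolase of endocannabinoids, rose by 2.20 ± 0.33, from a range of 3.75 to 5.13 (median 4.40) to one of 6.08 to 7.12 (median 6.86; limma adjusted p = 0.000666). Rxrg, a retinoid X receptor that pairs with other nuclear receptors, ranged from −5.51 to −4.23 in ALP (median −5.00), its zero level, and from 4.97 to 7.18 in EILP (median 6.23), with limma adjusted p = 3.64e-09. The retinoic acid receptor gene Rarg rose too, by 5.17 ± 0.83 (limma adjusted p = 0.00119), from levels that were all below 0 in ALP. Ugcg, the enzyme that makes glucosylceramide, rose by 1.38 ± 0.19, from a range of 6.05 to 6.72 (median 6.43) to one of 7.16 to 8.10 (median 7.81; limma adjusted p = 0.000286). The epoxygenase Cyp2j6 was the 1 called member of 22 cytochrome P450 genes, between 5.10 and 9.41 in ALP and between −4.20 and −0.06 in EILP (limma adjusted p = 3.34e-05).

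The hypoxia list, targets and regulators of the oxygen-sensing factor HIF-1, was divided, with 3 of 29 higher and 3 lower (20.7% called), 3 and 2 of them without each library. Ddit4, an inhibitor of mTORC1, rose by 1.77 ± 0.30 (limma adjusted p = 0.00203), and Ero1l, an oxidase of the endoplasmic reticulum, by 1.51 ± 0.29 (limma adjusted p = 0.00458). Egln1, the oxygen sensor that marks HIF-1α for destruction, fell by 1.66 ± 0.21 (limma adjusted p = 0.000156). Vegfa, the vascular growth factor and a HIF-1 target, fell as well (limma adjusted p = 0.00231), although the ranges of the groups overlapped.

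**Figure D3:**
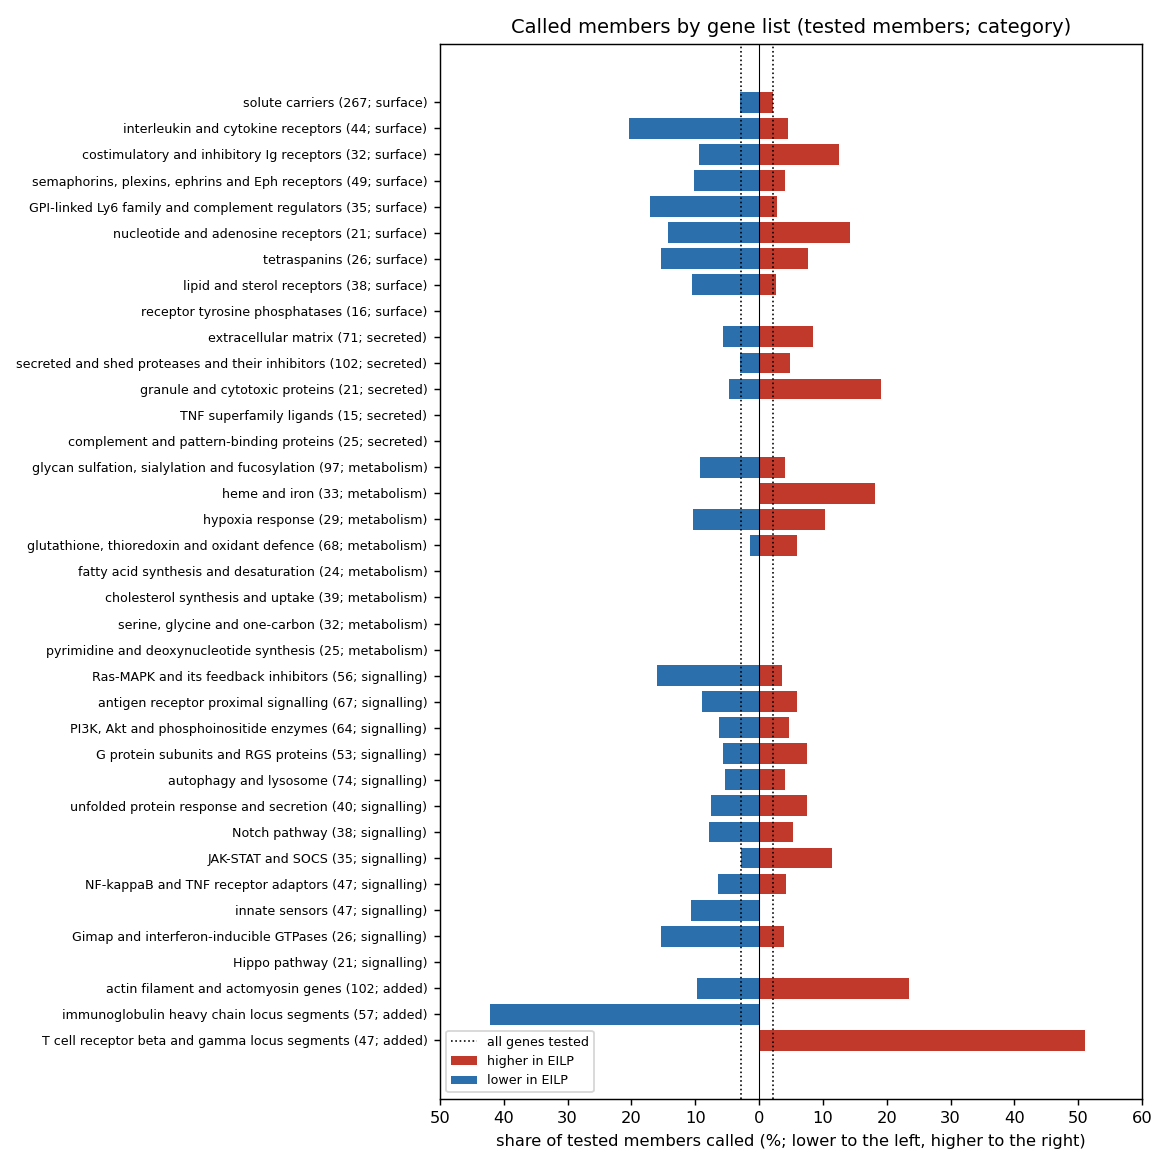
Share of tested members called higher (red, right) and lower (blue, left) in EILP for surface, secreted, metabolic and signalling lists among those with 5 or more called genes, or with none among at least 15 tested, and for the 3 lists chosen after values were seen. Dotted lines mark 2.25% and 2.79%, the shares over all genes. Receptor loci and actin genes have the longest bars, and 4 metabolic lists are empty.

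Among signalling genes 36 of 866 were higher and 60 lower (11.1%, against 5.05%, and 12.3% of those above the median level, against 6.39%). In the Ras-MAPK pathway, which carries signals from growth factor and antigen receptors, 9 of 56 genes fell and 2 rose (19.6%), with 6 and 2 kept without each library. The lower count was 3 without batch 4, and with libraries centred on their median the counts were 7 lower and 4 higher. Dusp2, a nuclear phosphatase that switches MAP kinases off, ranged from 6.77 to 7.41 log2 CPM in ALP (median 7.08) and from 5.29 to 5.89 in EILP (median 5.69), and fell by 1.47 ± 0.19 (limma adjusted p = 0.000182). Dusp6, the cytoplasmic ERK phosphatase, fell by 3.97 ± 0.68 (limma adjusted p = 0.00203, 0.0551 without batch 4), and Rassf2, a Ras-binding protein, fell by 1.55 ± 0.22 (limma adjusted p = 0.000454). Nras, a Ras GTPase, rose by 0.79 ± 0.14 (limma adjusted p = 0.00241). Rasgrp1, the Ras activator of T cells, lay at the zero level in ALP and higher in EILP (limma adjusted p = 0.00442, 0.0546 without both ALP 7 and EILP 2).

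The machinery that works next to antigen receptors changed in composition. Of 67 genes 4 rose and 6 fell (14.9%), and 4 and 3 stayed called without each library, with a lower count of 3 without ALP 1, ALP 4 or EILP 7 and counts of 6 higher and 5 lower with libraries centred on their median. Grb2, an adaptor of receptor kinases and antigen receptors, ranged from 6.97 to 7.45 log2 CPM in ALP (median 7.20) and from 8.56 to 8.97 in EILP (median 8.61), rising by 1.47 ± 0.11 (limma adjusted p = 4.52e-07). Themis, a GRB2 partner of developing T cells, ranged from −5.40 to −3.79 in ALP (median −5.37), its zero level, and from 3.81 to 5.98 in EILP (median 4.68; limma adjusted p = 1.51e-07). Trat1, a transmembrane adaptor of the T cell receptor, rose by 5.79 ± 0.90 (limma adjusted p = 0.000857). Prkce, a protein kinase C isoform, fell by 4.89 ± 0.96 (limma adjusted p = 0.00545), and Vav3, an adaptor and exchange factor of lymphocyte receptors, fell by 2.45 ± 0.51 (limma adjusted p = 0.00869, 0.0531 without both ALP 7 and EILP 2). Among 16 markers of mature T cells Themis was the 1 called, and the CD3 genes Cd3d, Cd3e and Cd3g were at the zero level in ALP. Their summed level was 318 to 928 CPM in ALP and 374 to 569 CPM in EILP.

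Pathways of morphogens and cytokines changed in a few members each. In the Wnt list 2 of 53 rose and 1 fell, a share (5.66%) near that of all genes. Tcf7, a gate gene called higher, stands outside this list. Lef1, the partner of TCF-1 in the same DNA-binding family, ranged from −5.57 to −4.67 log2 CPM in ALP (median −5.39), its zero level, and from 3.36 to 5.17 in EILP (median 4.90; limma adjusted p = 4.21e-08), while Tcf7l2, another member of that family, fell by 4.17 ± 0.72 (limma adjusted p = 0.00206). In the TGF-β list 3 of 33 fell, all 3 without each library, and none rose (9.09% called, against 5.05% of all genes). Tgfbr2, the ligand-binding receptor chain, ranged from 6.02 to 6.80 in ALP (median 6.48) and from 4.87 to 5.46 in EILP (median 4.98), and fell by 1.24 ± 0.22 (limma adjusted p = 0.0024). Smad1, a transducer of BMP signals, fell by 1.37 ± 0.25 (limma adjusted p = 0.00309), and the inhibitor Smad7 fell by 2.25 ± 0.43 (limma adjusted p = 0.00442). Notch1, the receptor for T lineage commitment, ranged from 6.74 to 7.94 (median 7.72) and from 4.49 to 6.06 (median 5.54), and fell by 2.19 ± 0.31 (limma adjusted p = 0.000414). The Notch target Hes1 was higher in EILP by 4.76 ± 1.00 (limma adjusted p = 0.00892), which did not pass when batch 4 was left out (adjusted p = 0.137), with only ALP and EILP libraries (0.0636) or without both ALP 7 and EILP 2 (0.0556).

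In the JAK-STAT list 4 of 35 rose and 1 fell (14.3%), 3 and 1 of them without each library. Jak2, a kinase of cytokine receptors, ranged from 5.33 to 6.01 log2 CPM in ALP (median 5.64) and from 6.32 to 7.36 in EILP (median 6.91), rising by 1.16 ± 0.22 (limma adjusted p = 0.00497). Pim2, a survival kinase induced by cytokines, rose by 1.75 ± 0.33 (limma adjusted p = 0.0041), and the feedback inhibitor Socs2 fell by 6.75 ± 1.22 (limma adjusted p = 0.00289). Nfkb1, the p105 and p50 subunit of NF-κB, ranged from 6.77 to 7.63 in ALP (median 7.10) and from 8.83 to 9.24 in EILP (median 9.10), rising by 1.88 ± 0.19 (limma adjusted p = 1.53e-05). Irak2, a kinase of the Toll-like and IL-1 receptors, rose by 2.42 ± 0.38 (limma adjusted p = 0.000962). In each of these genes the libraries of the groups were apart.

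Some sensors of nucleic acids and GTPases that interferon induces fell in EILP. Of 47 innate sensors 5 fell and none rose (10.6%), of which 2 stayed called without each library and 3 without ALP 1, ALP 2 or EILP 5, among others. Of 26 Gimap and interferon-inducible GTPases 4 fell and 1 rose (19.2%), with a median log2 difference of −1.08, and 3 and 0 stayed called. Tlr7, the endosomal sensor of single-stranded RNA, was at the zero level in EILP and ranged from 4.06 to 7.95 log2 CPM in ALP (limma adjusted p = 0.00287). Tgtp2, a GTPase that attacks the vacuoles of parasites, ranged from 6.82 to 7.61 in ALP (median 7.33) and from 4.68 to 5.30 in EILP (median 5.05), and fell by 2.22 ± 0.23 (limma adjusted p = 1.88e-05). Its near copy Tgtp1 can share reads with it. Ifi203, a DNA-binding protein of the AIM2 family, fell by 1.5 ± 0.24 (limma adjusted p = 0.00132), and Gm12250, an interferon-inducible GTPase gene, fell by 1.76 ± 0.26 (limma adjusted p = 0.000666). Ifit1, which binds viral RNA, ranged from 3.75 to 7.80 (median 5.03) and from −4.60 to 2.06 (median −1.36; limma adjusted p = 0.00242), and Oas1g, an oligoadenylate synthetase, fell too (limma adjusted p = 0.00445). Plasmacytoid and conventional dendritic cell markers moved in the same direction, 5 of 22 lower and 1 higher, with summed levels of 2740 to 4670 CPM in ALP and 1130 to 2590 CPM in EILP. Their part in these results was not tested.

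Promoters of genes lower in EILP held the interferon-stimulated response element more often than promoters at large. The core letters of this element, GAAA and GAAA with any 2 bases between them, are a site for IRF factors, and they were searched on both strands from 250 bases before to 50 after the start site in the RefSeq promoters of GRCm38.p6. They were present for 28 of the 362 lower genes with a promoter in the table (7.73%), for 12 of the 292 higher genes (4.11%) and for 3.82% of the 11454 tested genes, and in 3.44% of all 32851 promoters listed. A match is a description of letters and not a measured binding site. The 150 bases before the start site are shown for 4 of the lower genes above, chosen after their values were seen, since the element stands close to the start in each. They are written 5′ to 3′ on the strand of the gene, with the motif or its reverse complement in capitals, for Ifit1 (chr19:34640739-34640888, plus strand), Ifi203 (chr1:173942493-173942642, minus strand), Gm12250 (chr11:58183693-58183842, plus strand) and Oas1g (chr5:120887614-120887763, minus strand).
Ifit1: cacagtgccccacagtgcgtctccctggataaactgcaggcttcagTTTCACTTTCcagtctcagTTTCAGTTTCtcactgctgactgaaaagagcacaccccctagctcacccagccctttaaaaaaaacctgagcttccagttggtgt
Ifi203: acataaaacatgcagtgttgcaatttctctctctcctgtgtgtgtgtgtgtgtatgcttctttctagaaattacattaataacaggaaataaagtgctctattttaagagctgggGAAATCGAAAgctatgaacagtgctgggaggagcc
Gm12250: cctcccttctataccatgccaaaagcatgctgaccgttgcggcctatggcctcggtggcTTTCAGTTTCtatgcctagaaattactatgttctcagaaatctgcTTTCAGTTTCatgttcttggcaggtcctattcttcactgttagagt
Oas1g: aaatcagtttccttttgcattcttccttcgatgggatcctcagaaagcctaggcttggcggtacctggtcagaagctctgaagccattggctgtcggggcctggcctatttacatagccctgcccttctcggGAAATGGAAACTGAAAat
Ifit1 and Gm12250 carried 2 separate copies, Ifi203 1 copy 35 bases before the start, and Oas1g 2 overlapping copies, the first 18 bases before it. Of the other motifs searched, the TCF/LEF letters CTTTGAA or CTTTGAT, the kind of site TCF-1 and LEF1 bind, were present for 9.25% of the higher genes, 11.6% of the lower genes and 7.35% of the tested genes. The GATA letters AGATAA were present for 13%, 8.29% and 8.57% in that order. The E-box letters CAGCTG were present for 24.7%, 22.9% and 18.3%, and CAGGTG or CACCTG for 23.3%, 22.7% and 21.7%. The RORE letters AGGTCA were present for 17.1%, 17.1% and 15.5%, and the ETS letters GGAAGT for 28.1%, 34% and 31.5%. The NF-κB site was rare, at 0.342%, 0.829% and 0.253%, that is 1, 3 and 29 promoters.

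The cytoskeleton, a list put together after values were seen, also changed. Of 102 genes for actin filaments and actomyosin 24 rose and 10 fell (33.3%, and 41.6% of those above the median level), and 15 and 7 stayed called without each library. Without batch 4 the number that rose was 14. The rises were small, with a median of 0.76 on the log2 scale, and every one of the 24 had all EILP libraries above all ALP libraries. Such separation is common among called genes, and held for 319 of all 419 genes called higher. Tmsb4x, the thymosin that holds actin monomers, ranged from 9.16 to 10.86 log2 CPM in ALP (median 10.05) and from 11.38 to 11.93 in EILP (median 11.67), rising by 1.67 ± 0.23 (limma adjusted p = 0.000276). Gsn, the filament-severing protein gelsolin, ranged from 6.13 to 6.85 (median 6.35) and from 8.11 to 8.55 (median 8.20), rising by 1.86 ± 0.15 (limma adjusted p = 1.20e-06). Tagln2, a filament-binding protein, rose by 1.08 ± 0.10 (limma adjusted p = 3.09e-06), the crosslinker Flna by 0.93 ± 0.15 (limma adjusted p = 0.00157), and Pfn1, which loads monomers onto filaments, by 0.69 ± 0.13 (limma adjusted p = 0.00516). The cytoplasmic actins Actb and Actg1 rose by 0.71 ± 0.16 and 0.66 ± 0.12 (limma adjusted p = 0.0125 and 0.00383), but were not called without batch 4 (adjusted p = 0.132 and 0.0755). Without a trend in limma, Pfn1, Actb and Actg1 did not pass (adjusted p = 0.0654, 0.0904 and 0.0644). Other binding proteins fell. Cnn3, a calponin, ranged from 8.39 to 9.26 (median 8.94) and from 6.23 to 6.88 (median 6.46), and fell by 2.41 ± 0.19 (limma adjusted p = 9.42e-07). Coro7, a coronin of the Golgi, fell by 2.06 ± 0.19 (limma adjusted p = 5.56e-06), and Evl, an Ena/VASP protein of filament tips, fell by 1.93 ± 0.34 (limma adjusted p = 0.00243).

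**Figure D4:**
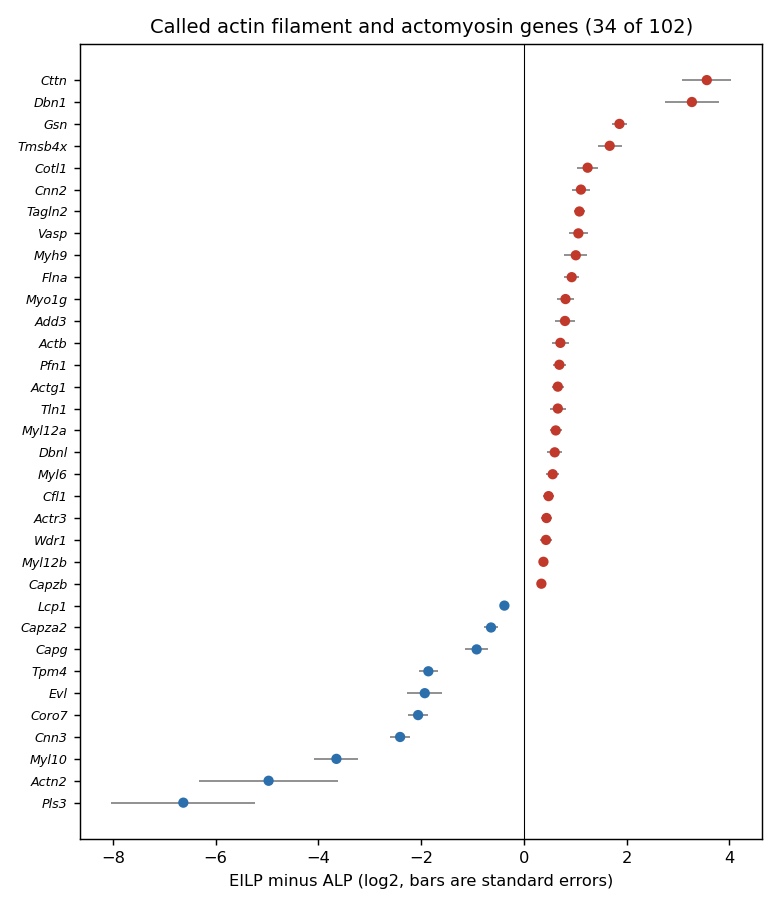
Log2 difference between EILP and ALP for the 34 called genes among 102 actin filament and actomyosin genes, with standard errors as bars. The 24 that rose lie mostly between 0.34 and 1.86, and the 10 that fell reach −6.63.

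Transcripts of the immunoglobulin heavy chain locus and of the T cell receptor β and γ loci changed in opposite directions. Both lists were also put together after values were seen and hold only these loci. Of 57 measured segments of the immunoglobulin heavy chain locus 24 fell and none rose (42.1%), 20 of them without each library, and 17 were at the zero level in EILP. Of 47 segments of the T cell receptor β and γ loci 24 rose and none fell (51.1%), 19 of them without each library, and 15 were at the zero level in ALP. Over T cell receptor segments of any locus, 5 of 7 constant, 1 of 3 diversity, 13 of 17 joining and 5 of 41 variable segments were called. For immunoglobulin the counts were 2 of 7, 1 of 3, 4 of 4 and 15 of 42, with 2 of 9 variable pseudogenes. All called segments that could be placed on the genome lay in the loci listed here. Ighm, the μ constant region, ranged from 10.18 to 10.79 log2 CPM in ALP (median 10.60) and from 8.20 to 9.18 in EILP (median 8.70), and fell by 1.87 ± 0.17 (limma adjusted p = 6.01e-06). Ighv1-83, a variable segment at the far end of the locus, ranged from 2.15 to 3.58 in ALP (median 2.78) and from −5.50 to −4.58 in EILP (median −5.05), its zero level (limma adjusted p = 5.69e-07). Trbc1, a β constant region, ranged from −5.47 to 0.47 in ALP (median −4.49) and from 7.42 to 8.13 in EILP (median 7.68; limma adjusted p = 5.78e-07). Tcrg-C4, a γ constant region, was between 5.24 and 6.71 in EILP with ALP at the zero level (limma adjusted p = 5.90e-10). Segments of a family are near copies of each other, so that reads may be shared among them, and the counting method is not given in the sources used here.

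These segments lay in runs along the chromosome. Of the 939 called genes 903 could be placed on GRCm38 with GENCODE M21, and 160 of them stood in 64 runs of 2 or more neighbouring tested genes called in the same direction. The longest, chr6:41521787-41539881, held 10 genes higher in EILP from Prss2 through Trbd1 and the 7 Trbj1 segments to Trbc1. Prss2, a trypsinogen gene, was not called without ALP 1 or any 1 of EILP 1, 5, 6 and 7 (adjusted p from 0.0638 to 0.0768). The next was chr12:115833950-115964250, with 8 lower Ighv1 segments from Ighv1-75 to Ighv1-83, followed by 7 lower genes from Ighd and Ighm over the Ighj segments to Ighd4-1. Outside the receptor loci, Notch1 stood in a run of 4 lower genes with Egfl7, which lies next to it and encodes a secreted vessel factor, Agpat2 and Fam69b, of which Agpat2 was not called without EILP 7 (adjusted p = 0.0506). Tcf7 stood in a run of 3 higher genes with A630014C17Rik, an antisense transcript that overlaps it and that reads without strand cannot separate from it, and Vdac1, a mitochondrial channel. The lists of runs were not tested against chance.

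**Figure D5:**
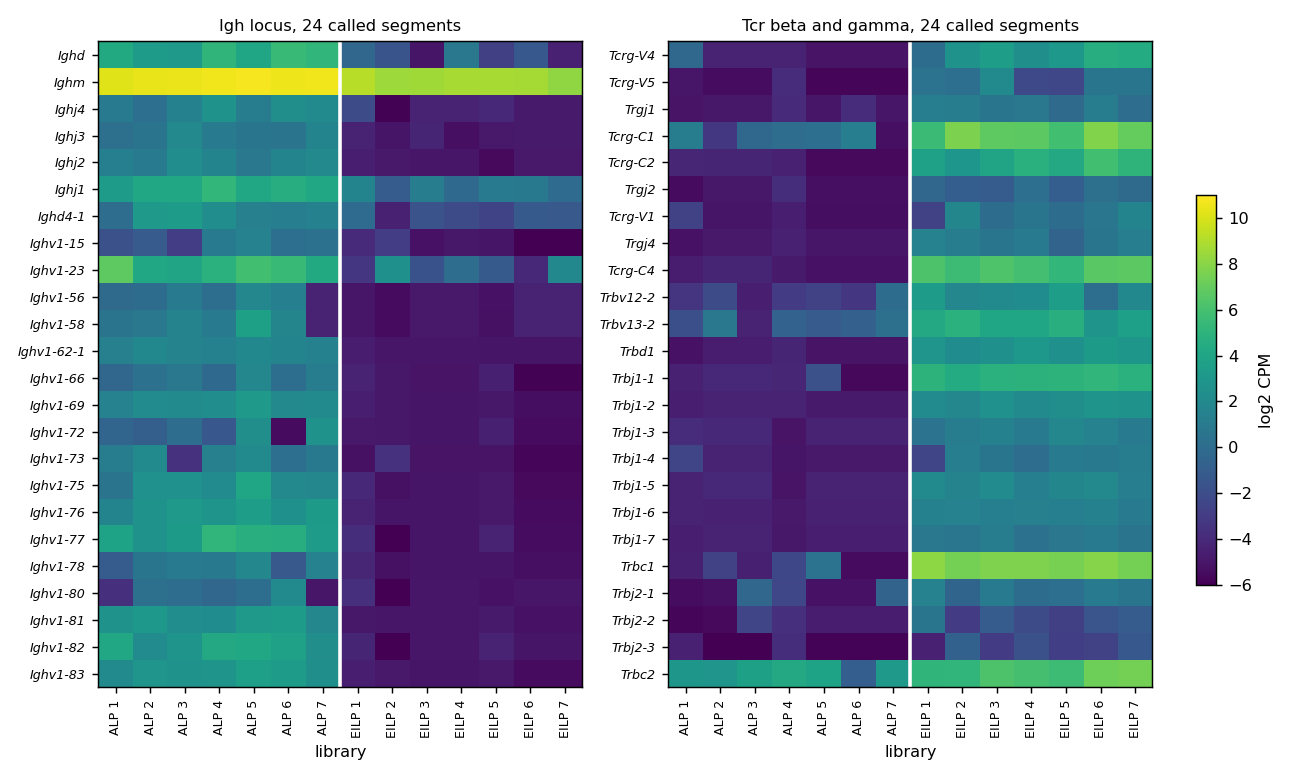
Log2 CPM (colour) of the 24 called immunoglobulin heavy chain segments (left) and the 24 called T cell receptor β and γ segments (right) in each ALP and EILP library, in chromosome order. The left panel is brighter in ALP and the right panel in EILP, and Ighm is high in all 14 libraries.

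Transcription factors beyond the stage-defining ones included changes with wide separation. Of 51 basic helix-loop-helix genes 5 rose and 2 fell (13.7%), 5 and 1 of them without each library. Mycn, a MYC family growth regulator, ranged from 3.88 to 5.80 log2 CPM in ALP (median 5.48) and from 7.36 to 7.88 in EILP (median 7.73), rising by 2.56 ± 0.33 (limma adjusted p = 0.00016). Tcf4, the E protein that directs plasmacytoid dendritic cells and B cells, ranged from 7.73 to 8.50 (median 8.06) and from 5.65 to 6.76 (median 6.33), and fell by 1.76 ± 0.20 (limma adjusted p = 4.85e-05). In the nuclear receptor list 4 of 38 rose, all 4 without each library, and 1 fell (13.2%). Besides Rxrg and Rarg these included Rora, a receptor needed by ILC2 (limma adjusted p = 0.000144). Homeobox genes were only lower, 6 of 77 (7.79%), with 3 kept without each library and a count of 3 without EILP 7. Satb1, a chromatin organizer of lymphoid progenitors, fell by 1.07 ± 0.19 (limma adjusted p = 0.00213), and the progenitor gene Hoxa10 fell from a range of 2.38 to 4.38 to one of −5.14 to 0.00 (limma adjusted p = 0.0024).

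Targets of p53 and genes of the secretory pathway were called in both directions. Cdkn1a, the cell cycle inhibitor p21, rose by 1.8 ± 0.26 (limma adjusted p = 0.000538), Btg2, an antiproliferative gene, by 1.43 ± 0.26 (limma adjusted p = 0.00305), and Perp, a junctional protein and p53 target, was between 4.22 and 6.90 log2 CPM in EILP with ALP at the zero level (limma adjusted p = 1.88e-05). These were the 3 of 31 genes of that list that rose, and 1 fell (12.9% called, against 5.05% of all genes). The median of the list was −0.16, and 0.05 with libraries centred on their median. In the unfolded protein response and secretion list 3 of 40 rose and 3 fell (15% called). Calr, the chaperone calreticulin, rose by 1.16 ± 0.17 (limma adjusted p = 0.000468). Herpud1, a factor of protein degradation at the endoplasmic reticulum, fell by 1.13 ± 0.22 (limma adjusted p = 0.00497), and Mzb1, a chaperone of immunoglobulin assembly, fell too (limma adjusted p = 0.000632). Markers of the B lineage fell in 7 of 21 genes and rose in none, 5 of them without each library, with summed levels of 493 to 1820 CPM in ALP and 220 to 339 CPM in EILP. Pax5 and Pou2af1 were at the zero level in both groups.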

How the data were processed

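The deposited table holds log2 CPM for 18607 genes in 19 libraries, and per the submitters' processing notes the reads passed through bcl2fastq 1.8.4 and STAR 2.4.0h on mm10 and through edgeR and limma. The counting tool is not given in the sources used here. These log2 values appear to have been cleared of batch by the authors before deposit, because batch coefficients fitted beside the groups did not exceed 1.84e-08, so the SD within a group is too small as an error and batch was kept in the model to count its degrees of freedom. Limma 3.58.1 in R 4.3.3 was fitted with group and batch to all 19 libraries (12 residual degrees of freedom, trend on mean level), contrasting EILP with ALP, with Benjamini-Hochberg adjustment over all 18607 genes and a threshold of 0.05. No filter or pseudocount was added. Depth is unknown, since no counts were used here. Ties at the zero level used a tolerance of 1e-08. The fit was first tested on data with known answers, where most changes of 1 on the log2 scale were missed. A gene that was not called may therefore still differ. Replicate numbers were not used to pair the groups. The comparison, the gene lists and the alternatives were chosen with earlier results of these data known. Genes were named as the markers, up to 3 members higher and 3 lower per list by smallest p among called members, and the 10 widest, 10 most significant and 10 most expressed from a zero level in each direction. Of these, mainly genes whose call held without each library are described. Kit, Flt3, Gzma, Ifit1, Oas1g, Gm12250, the genes of the actin and receptor-locus lists, the neighbours in a run and the cell type markers at the zero level were chosen after their values were seen. Promoter sequences were RefSeq's for GRCm38.p6, matched by symbol for 11454 tested genes, and 8 motifs were searched.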

Additional observations from a re-analysis of the deposited data

Results flagged for a closer look

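Among the 56 genes whose libraries are given in full by range, 112 groups of 7 libraries were screened for a lowest or highest library whose gap to its nearest neighbour was too large a part of the group's range by Dixon's 95% critical value. Chance flags about 1 in 20 groups, or 5.6 of 112, and 9 were found. In 4 of them the library was ALP 4, the 1 ALP library of batch 4. ALP 4 had the highest ALP level of Fgf3 (−0.27 log2 CPM, the next at −4.23), of Alox5 (0.29, the next at −3.97) and of Themis (−3.79, the next at −5.03), and the lowest of Il15 (1.12, the next at 4.30). Fgf3, Alox5 and Themis were counted as at the zero level in ALP from other libraries, and ALP 4 did not enter that count. In EILP, Id2 was lowest in EILP 5 (8.74, the next at 9.39), Tox in EILP 2 (7.52, the next at 7.87) and Ugcg in EILP 1 (7.16, the next at 7.74). In ALP, Eltd1 was highest in ALP 5 (10.01, the next at 9.24) and Notch1 lowest in ALP 6 (6.74, the next at 7.47). None of these libraries crossed into the range of the other group, and each of the 9 genes stayed called when any single library was left out.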

How the results depend on the processing

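Of 939 genes called, leaving out each library in turn gave between 696 (without EILP 7) and 868 (without ALP 3) calls, with 308 to 407 higher and 388 to 477 lower. Without a batch term 2551 genes were called (1269 higher, 1282 lower), which treats the batch-cleared values as if no degrees of freedom had been spent. With the replicate number as a block in place of batch, 1613 were called (752 higher, 861 lower). Correlations of same-numbered libraries ran from −0.603 to 0.003. Replicates 3, 4 and 5, whose libraries lay in different batches, gave 0.003, −0.022 and −0.031. In values cleared of batch, libraries of a batch tend to deviate in opposite directions, as replicates 1, 2, 6 and 7 did. These correlations therefore cannot tell whether the numbers pair the samples. Batch 5 alone, with 3 ALP and 2 EILP libraries, gave 397 (220 higher, 177 lower). Median centring gave 1199, of which 804 were higher, and leaving out batch 4 gave 583, of which 297 were lower. With 28 alternatives in all, the other settings stayed within 1.5 times of the reported count, but similar totals did not mean the same genes. Of the 939 genes, 684 stayed called with only the ALP and EILP libraries. The number was 713 in limma without trend and 597 without ALP 7 and EILP 2, but 886 with quantile normalization and 927 with robust limma. Totals of these other settings follow. The settings were only the ALP and EILP libraries (823), only batches with both groups (866), quantile normalization (946), genes above the median level (690), limma without trend (757), robust limma (938), a fold of at least 1 on the log2 scale (742) and, chosen after seeing the data, no ALP 7 and EILP 2 (706) and no batch 3 (866). Of 305 called genes followed by name, 217 were called without each library in turn and 73 at every setting. Calls were lost for 216 in batch 5 alone, 97 without batch 4 and 20 with median centring, and none changed sign at any setting. Without batch 4 the lower counts fell from 9 to 4 for glycan enzymes and from 6 to 2 for antigen receptor signalling, and solute carriers gave 1 higher and 3 lower. The number of libraries limits precision, and low levels cannot be told from absence because no read counts were used here.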
